A study of Mus musculus with 12 samples.

Results

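RAW 264.7 cells, a mouse macrophage line, were stimulated with bacterial lipopolysaccharide (LPS) and profiled on Affymetrix arrays, and the comparison described here sets all arrays that received the preparation labelled TsSP against all that did not. Every array of the series entered it, 12 of 12, with 6 arrays on each side. The 6 arrays with TsSP were 3 given TsSP (50 µg/mL) and LPS and 3 given inulin (500 µg/mL), TsSP (50 µg/mL) and LPS. The 6 arrays without TsSP were 3 given LPS alone and 3 given inulin (500 µg/mL) and LPS. All 4 groups shared LPS at 500 ng/mL and a culture of 6 hours at 37°C in 5% CO2, so each difference below is one within LPS-stimulated cells. The samples were assigned by whether the title names TsSP, and inulin, a plant fructan taken as a dietary fibre, entered the model as a covariate. TsSP is written as in the labels, and the series' design text speaks of helminth products. RAW 264.7 is a single transformed line that stands in for macrophages and is not primary tissue. The question was which moderate changes, those under 2-fold, a comparison of 6 with 6 arrays measures that the comparisons of 3 with 3 arrays measure poorly.

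Macrophages sense LPS through Toll-like receptor 4, and the response draws on nearly every part of the cell besides the cytokine genes. New secreted and membrane proteins are threaded into the endoplasmic reticulum (ER), folded by lumenal chaperones, given sugar chains and carried onward in coated vesicles. Making protein needs ribosomes, which are assembled in the nucleolus by a large set of processing factors, and charged transfer RNAs, which are made by the aminoacyl-tRNA synthetases.

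The deposited values are signals on a log2 scale, 1 per probe set and array, and cover 19505 named genes, of which 8289 lay above the brightest background probe set on all 12 arrays. Arrays of the same group correlated across genes at r = 0.9928 to 0.9951. The exon control probe sets of the array had medians of 11.22 to 11.36 on the arrays with TsSP and of 11.00 to 11.21 on those without, so these controls lay higher with TsSP on every array. Whether the 3 arrays of each group stem from separate cultures is not stated, so the p-values speak only to the spread among these samples, and that spread may be technical. The markers of macrophages were present, with 19 of 23 measured markers above background on all 12 arrays, whereas of 26 markers of other cell types only 2 were, Dcn and Pecam1. Adgre1, Siglec1, Maf and Aif1 were called lower with TsSP among the macrophage markers, by 1.10, 1.41, 0.37 and 0.54 on the log2 scale, and 8 were called higher, such as the integrin gene Itgam at 0.71. The median of the macrophage list was 0.001 to 0.092 relative to each gene's mean on the arrays with TsSP and -0.091 to 0.011 on those without, and its part in the results below was not tested. As these are bulk RNA samples, fewer cells of a type and less RNA per cell cannot be told apart.

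With TsSP, 5098 of 19505 genes differed at an adjusted p under 0.05 (26.1%; limma, Benjamini-Hochberg over all genes), and most of the differences were small. Of these, 4050 were under 2-fold (20.8% of all genes and 79.4% of the calls), with 2326 higher (11.9%) and 1724 lower (8.84%). A further 1048 were 2-fold or more (5.37%), 591 higher (3.03%) and 457 lower (2.34%). The moderate differences had a median of 1.44-fold and ran down to 0.198 on the log2 scale. In 2453 of them, or 60.6%, all 6 arrays with TsSP lay on one side of the 6 without, against 18% of all genes, a description only, since the same arrays chose these genes. The whole 95% interval lay inside 2-fold for 3174 of the 4050, while for 876 it reached past 2-fold, so that these cannot be placed firmly on either side of the limit. Among genes above background on all 12 arrays, 40.1% were called under 2-fold, 23.5% higher and 16.7% lower, and the gene groups below are read against these shares. The share of a gene group is taken over all its measured members, including those not above background on all 12 arrays. A further 475 moderate calls were above background on no array and are not named.

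The choice of scale moved the balance between rises and falls. As deposited, 57.4% of the moderate calls were higher with TsSP, whereas after quantile normalization 53.3% were (2163 higher, 1897 lower), after centring each array on its expressed genes 49.8% (2094 and 2112), and after centring on the exon controls 30.8% (1455 and 3273). The median difference of all genes was 0.004 as deposited and -0.153 after exon control centring, and changes on that scale are to be read relative to this shift. No moderate call turned its direction under any scaling. All 1724 moderate falls were also called lower after exon control centring, and 1275 of the 2326 rises were still called higher. After that centring 30 of 38 gene lists held over 1.5 times as many moderate falls, and in 25 the moderate rises numbered fewer by a factor over 1.5. For each gene group the number of moderate members called the same way under every scaling is therefore given, and the part of the exon control shift in the smaller rises was not tested.

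The 6 with 6 comparison gave narrower intervals, which follows from its larger number of arrays on each side. The median 95% interval for expressed genes ran 0.221 to either side on the log2 scale, or 1.17-fold, against 0.316, or 1.24-fold, when 3 arrays with TsSP and LPS were set against 3 with LPS alone in the same kind of model. Of the 468 genes called at under 1.25-fold, 387 (82.7%) were called in neither comparison of 3 with 3 arrays. At 1.25-fold to 1.5-fold this held for 656 of 1971 (33.3%), at 1.5-fold to 2-fold for 180 of 1611 (11.2%), and at 2-fold or more for 4 of 1048. In all 1223 moderate calls, 30.2%, came from the 6 with 6 comparison alone (6.27% of all genes), 681 higher and 542 lower, at a median of 1.3-fold. That number was 648 when only genes above background in at least 1 group were fitted, and 1910 when each contrast was fitted on its own 6 arrays. Since both smaller comparisons are parts of the larger one, their agreement in sign for these genes is built in. The smaller comparisons called 3525 genes (18.1%) with TsSP against LPS alone and 3248 (16.7%) with inulin and TsSP against inulin, and 379 genes called in one of them were not called in the 6 with 6 comparison.

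**Figure D1:**
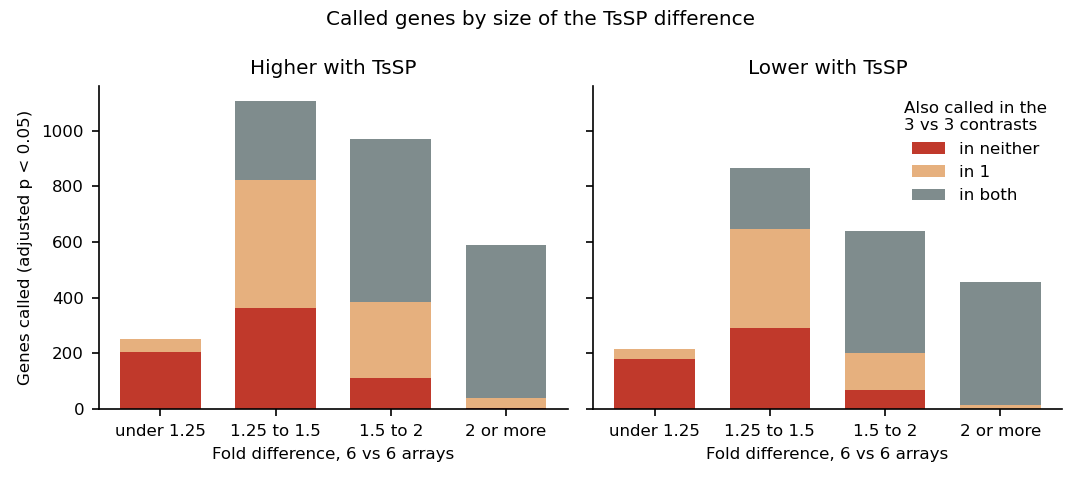
Number of genes called in the comparison of 6 arrays with TsSP and 6 without (y axis, adjusted p under 0.05), by size of the fold difference (x axis), for genes higher with TsSP (left) and lower (right). Colours show whether a gene was also called in neither, 1 or both of the comparisons of 3 with 3 arrays. Of the smallest class, under 1.25-fold, 387 of 468 genes were called in neither, and of the largest class 991 of 1048 were called in both.

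Among genes that only the larger comparison called, the 8 rises with the smallest p included Srebf2, which encodes a transcription factor of cholesterol synthesis, Mt2, a metallothionein gene, Nasp, a histone chaperone gene, and Cbx5, which encodes the heterochromatin protein HP1 alpha. Srebf2 read 16.02, 16.08 and 16.10 (lowest, median and highest of 6 arrays with TsSP), against 15.68, 15.77 and 15.87 in the 6 without, a rise of 0.31 (SE 0.07, adjusted p = 0.00429, limma). The groups did not overlap, and the differences within the arrays without and with inulin were 0.32 and 0.31, each just short of its threshold at adjusted p = 0.0527 and 0.0644. Mt2, Nasp, Cbx5, Nucb1, Actr1a and Zcchc17 rose by 0.31, 0.43, 0.37, 0.34, 0.36 and 0.40, and Ppm1m by 0.72. After exon control centring Ppm1m alone of the 8 kept its call (adjusted p = 0.0142), with the other 7 at adjusted p = 0.0586 to 0.163.

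The 8 falls of the same kind all kept their calls after exon control centring. They were Iqgap1, a scaffold gene of the actin cytoskeleton, Ppp1cb, which encodes a catalytic subunit of protein phosphatase 1, Polr3c, a subunit gene of RNA polymerase III, Vipas39, an endosomal sorting gene, Apaf1, which encodes the platform of caspase-9 activation, Pno1, a ribosome assembly gene, Tra2b, a splicing factor gene, and Iars, the isoleucyl-tRNA synthetase gene. Ppp1cb read 12.95, 13.14 and 13.35 with TsSP (lowest, median and highest of 6), against 13.42, 13.57 and 13.66 without, a fall of 0.43 (adjusted p = 0.00408). Apaf1 read 11.10, 11.62 and 11.70 with TsSP, against 11.85, 12.00 and 12.34 without, a fall of 0.51 (adjusted p = 0.00467). In both genes the highest array with TsSP lay below the lowest without, by a narrow margin. Polr3c, Vipas39, Pno1, Tra2b, Iqgap1 and Iars fell by 0.31, 0.49, 0.33, 0.34, 0.43 and 0.41.

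Moderate differences were also measured in arrays that had no part in choosing them. In the 6 arrays without inulin, fitted alone, 1573 genes were called under 2-fold with TsSP, 941 higher and 632 lower. In the 6 arrays with inulin, also fitted alone, 931 of these (59.2%) were called the same way, against 13.7% of all genes called there (7.13% higher, 6.59% lower), and 0 were called the opposite way. The sign was the same in 1510, or 96%. Their median size was 0.613 in the arrays with inulin, against 0.723 in the arrays that chose them. The other way round, 933 of 1611 genes (57.9%) chosen with inulin were called the same way without it, against 13.8% of all genes (8.31% higher, 5.47% lower), and 1552 (96.3%) had the same sign. The 2 sets of arrays share no array. The 13.7% and 13.8% cover 19505 genes, of which 8289 lay above background on all 12 arrays. In the 6 with 6 comparison 49.1% of those 8289 were called, against 26.1% of all genes. The shares called among expressed genes within each set of 6 arrays are not given here. The 59.2% and 57.9% are therefore not set against expressed genes alone.

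**Figure D2:**
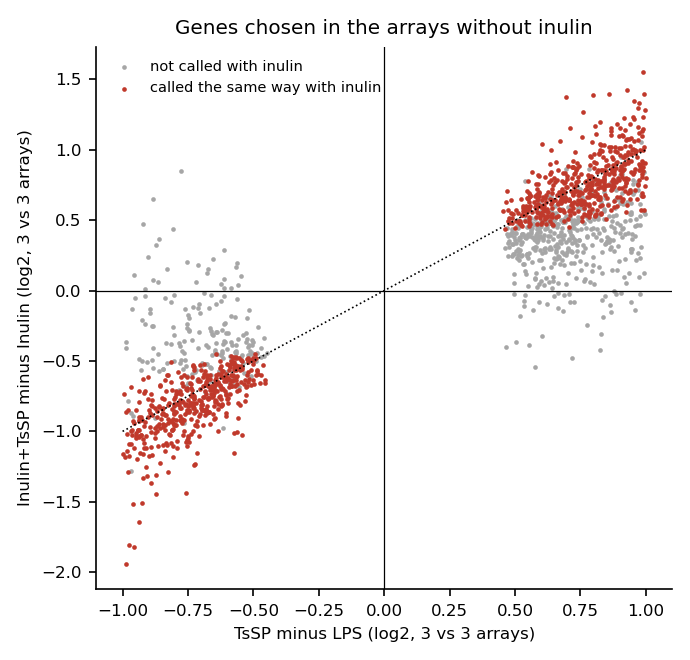
Differences of 1573 genes called under 2-fold in the arrays without inulin (x axis, TsSP minus LPS, log2) and the same genes in the arrays with inulin (y axis, Inulin+TsSP minus Inulin, log2), 3 with 3 arrays each. Red points are the 931 genes called the same way with inulin, grey points those not called, and the dotted line marks equal differences. Most points lie in the quadrants of equal sign, and many lie nearer to 0 on the y axis than on the x axis.

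No gene showed a called difference between the effects of TsSP without and with inulin. The interaction called 0 genes in limma (smallest adjusted p = 0.646), with 1089 genes at an unadjusted p under 0.05 (5.58%), and among the 4050 moderate calls 157 (3.88%). Inulin itself called 0 genes (smallest adjusted p = 0.598), with 1009 at an unadjusted p under 0.05. A p that misses the threshold does not show equal effects.

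The 12 moderate rises with the smallest p-values included genes of metal transport, lipid handling and cell adhesion. Slc11a1, which encodes the phagosomal metal transporter NRAMP1, read 17.44, 17.47 and 17.57 in the arrays with TsSP (lowest, median and highest of 6), against 16.43, 16.52 and 16.64 in those without. It rose 1.94-fold, with a log2 difference of 0.96 (SE 0.07; adjusted p = 6.79e-07, limma), with no overlap and all 6 arrays with TsSP within a narrow band. Akr1b8, an aldo-keto reductase gene, read 16.42, 16.49 and 16.58 with TsSP, against 15.43, 15.60 and 15.63 without, and rose 1.91-fold. Aldoc, the aldolase C gene of glycolysis, Lpcat3, which encodes a lysophospholipid acyltransferase, and Sc5d and Erg28, both genes of sterol synthesis, rose 1.92-fold, 1.83-fold, 1.79-fold and 1.90-fold. Tgfbi, a matrix protein gene, Pf4, a chemokine gene, Zyx, which encodes the focal adhesion protein zyxin, Rnd1, Shtn1 and Tle5 rose 1.75-fold to 1.97-fold. The 12 genes were called higher under every scaling and without any single array.

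The 12 moderate falls with the smallest p-values included genes known to be induced by interferon. Usp18, which encodes the protease that removes ISG15 from proteins, read 16.17, 16.29 and 16.35 with TsSP, against 17.14, 17.29 and 17.34 without. It fell 1.99-fold, or by 0.99 in log2 units (SE 0.07; adjusted p = 4.82e-07), with a wide gap between the groups. Ifih1, which encodes the RNA sensor MDA5, fell 1.98-fold, Herc6, an ISG15 ligase gene in the mouse, 1.92-fold, Mx2, an antiviral GTPase gene, 1.85-fold, and Apobec3, an antiviral cytidine deaminase gene, 1.90-fold. Il18, the gene of an inflammasome-processed cytokine, and Traf1, an adaptor gene of tumour necrosis factor receptors, fell 1.98-fold and 2.00-fold (0.98 and 1.00 on the log2 scale). Aftph, Tlk2, Sgk3, Arhgap10 and Usb1 fell 1.90-fold to 1.97-fold. The 12 falls lay close to the 2-fold limit, and after exon control centring each exceeded it, at -1.04 to -1.15 on the log2 scale.

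Promoters of 3 interferon-induced genes are shown because genes known to be induced by interferon were among the leading falls. The core letters of the interferon-stimulated response element, GAAA followed after any 2 bases by GAAA, were searched on both strands in the window from 250 bases before to 50 after the start of each gene in RefSeq (GRCm38.p6), which 15691 of the fitted genes have. They occurred in 70 of 1116 windows (6.27%) of moderate falls above background on all 12 arrays and in 39 of 1634 (2.39%) of moderate rises, against 535 of 15691 (3.41%) of all genes. Of genes expressed on all 12 arrays 234 of 6844 (3.42%) held them, 107 called lower and 46 called higher. Among the gene lists searched the share was highest in cytosolic ribosomal proteins, with 6 of 37 (16.2%), of which 0 were called. The 3 falls with the smallest p among those with a match are given from 5′ to 3′ with the matching letters in capitals.
Ifih1, chr2:62646206-62646505 (minus strand): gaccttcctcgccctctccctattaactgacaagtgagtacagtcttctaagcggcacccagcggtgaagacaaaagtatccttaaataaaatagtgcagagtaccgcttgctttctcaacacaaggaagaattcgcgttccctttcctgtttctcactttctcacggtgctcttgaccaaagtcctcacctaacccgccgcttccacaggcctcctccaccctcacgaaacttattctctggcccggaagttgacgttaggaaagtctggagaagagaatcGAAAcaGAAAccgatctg
Apobec3, chr15:79892158-79892457 (plus strand): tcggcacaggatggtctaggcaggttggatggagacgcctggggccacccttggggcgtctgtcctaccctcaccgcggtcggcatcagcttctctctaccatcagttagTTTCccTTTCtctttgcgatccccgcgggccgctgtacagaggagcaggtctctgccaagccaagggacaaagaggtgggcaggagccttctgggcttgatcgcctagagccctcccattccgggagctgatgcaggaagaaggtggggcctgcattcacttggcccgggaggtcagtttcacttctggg
Irgm1, chr11:48871371-48871670 (minus strand): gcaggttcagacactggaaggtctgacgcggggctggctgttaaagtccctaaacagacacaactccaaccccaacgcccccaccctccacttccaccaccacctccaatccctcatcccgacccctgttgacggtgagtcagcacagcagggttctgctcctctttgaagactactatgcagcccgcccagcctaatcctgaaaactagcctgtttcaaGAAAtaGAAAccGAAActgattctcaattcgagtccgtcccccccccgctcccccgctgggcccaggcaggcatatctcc
The match lies after the start in Ifih1, on the opposite strand in Apobec3, and in Irgm1, an immunity-related GTPase gene that fell 1.90-fold, 2 matches overlap. A match is a description of the letters and not a measured binding site.

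**Figure D3:**
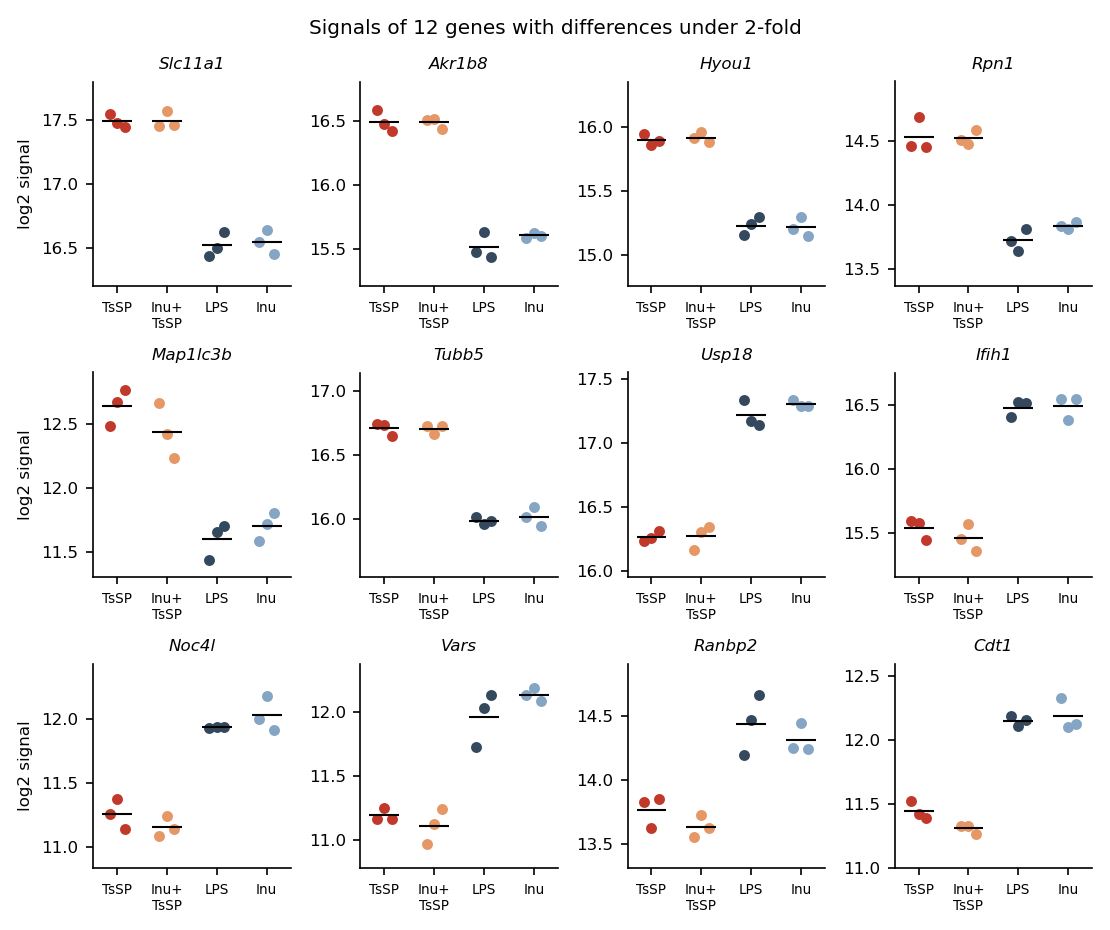
Log2 signals (y axis) of 12 genes with differences under 2-fold, on each of 3 arrays in the 4 groups (x axis; Inu stands for inulin). Points are arrays, lines are group means, and every panel spans the same 1.6 log2 units. The 6 arrays with TsSP, in red and orange, lie above the 6 others for Slc11a1, Akr1b8, Hyou1, Rpn1, Map1lc3b and Tubb5 and below them for Usp18, Ifih1, Noc4l, Vars, Ranbp2 and Cdt1.

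At the limit itself, Zfp558 and Me2 lay just inside 2-fold among the rises, at 0.9999 and 0.9993 on the log2 scale, and Fam53c and C9orf72 among the falls, at -0.9997 and -0.9996. Just outside lay Tmem41b and Plpp5 at 1.0002 and 1.0014, and Dusp8 and Rrp12 at -1.0047 and -1.0121. The SEs of these differences were 0.08 to 0.15, so members on either side of the limit are not distinguishable by size.

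Genes that build ribosomes had the largest share of moderate falls among the 39 gene lists examined. Of 55 measured ribosome biogenesis genes, all above background on every array, 34 fell by less than 2-fold (61.8%, against 16.7% of expressed genes), 5 fell by more (Utp20, Wdr43, Rrp9, Nmd3 and Rrp12) and 1, Ubtf, rose. The median difference of the list was -0.48 on the log2 scale, against 0.064 over all expressed genes, and 32 of the 34 moderate falls and the rise were called under every scaling. On single arrays the median of the members, each taken relative to its own mean, was -0.266 to -0.174 with TsSP and 0.138 to 0.297 without. Every array with TsSP thus lay below every array without, in both inulin strata. With any 1 array left out, 31 to 35 members were called lower under 2-fold.

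Noc4l, a factor of small subunit assembly, read 11.09, 11.20 and 11.37 with TsSP, against 11.91, 11.94 and 12.18 without, and fell 1.71-fold (SE 0.08 on the log2 scale, adjusted p = 1.28e-05). Ddx27, which encodes a helicase of ribosomal RNA processing, read 10.55, 10.61 and 10.68 with TsSP, against 11.14, 11.36 and 11.39 without, and fell 1.64-fold. In both genes the groups did not overlap. Ltv1, which accompanies the nascent small subunit, Noc3l, a large subunit factor, and Wdr75, a factor of early ribosomal RNA processing, fell 1.79-fold, 1.68-fold and 1.55-fold.

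Grouped by what they do, in sub-groups formed after the values had been seen, all 16 small subunit processing factors fell (median -0.527, all 16 under every scaling), and 11 of 16 large subunit assembly factors did (median -0.386). Of 6 genes for RNA polymerase I and its factors 1 fell, Polr1a, and 1, Ubtf, the gene of the activator UBF, was the member that rose, by 0.49 (SE 0.10, adjusted p = 0.00199). Of 6 genes for the proteins of box C/D and H/ACA particles, which guide RNA modification, 2 fell, Nop58 and Gar1. The abundant nucleolar genes Npm1 and Fbl were not called, with log2 differences of -0.12 and -0.18 (adjusted p = 0.322 and 0.135).

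Few genes for the proteins of the ribosome itself were called. Of 48 measured cytosolic ribosomal protein genes, 0 fell and 2 rose at under 2-fold, Rpl21 by 0.26 and Rps21 by 0.26 on the log2 scale (SE 0.07 each), against background shares of 16.7% and 23.5%, and neither was called after exon control centring. The scaling moved these counts, to 7 higher and 0 lower after quantile normalization, 1 and 0 after centring on expressed genes, and 0 and 2 after exon control centring. Rps21 also was not called in 2 of the 12 fits that each left out an array, at adjusted p = 0.0536 without Inulin replicate 3. Differences ran from -0.148 (Rps20) to 0.264, and for all 48 the whole 95% interval lay within 0.5 of 0. Rpl15 was measured most tightly near 0: it read 16.85, 16.88 and 16.91 with TsSP, against 16.83, 16.88 and 16.92 without, a difference of -0.0004 with a 95% interval from -0.14 to 0.14. The median of the list was 0.068 as deposited and -0.089 after exon control centring, and the array medians of the groups overlapped.

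Many aminoacyl-tRNA synthetase genes, whose products charge transfer RNAs with amino acids, were lower too. Of 34 measured, 17 fell by less than 2-fold (50%) and 1, the glutaminyl-tRNA synthetase gene Qars, rose by 0.41 (SE 0.09, adjusted p = 0.00271; adjusted p = 0.0544 after exon control centring). The median was -0.312, array medians were -0.187 to -0.126 with TsSP and 0.121 to 0.215 without, and 15 of the falls were called under every scaling. The rises numbered 2 without Inulin replicate 1 or Inulin+TsSP replicate 1 or 2. Vars, for valine, read 10.97, 11.17 and 11.25 with TsSP, against 11.73, 12.11 and 12.19 without, a fall of 1.86-fold (SE 0.10 on the log2 scale, adjusted p = 1.20e-05). Cars, Kars and Wars, for cysteine, lysine and tryptophan, fell 1.47-fold, 1.41-fold and 1.47-fold. By compartment, 15 of 18 genes for cytosolic enzymes fell, against 2 of 16 for mitochondrial ones, Rars2 and Sars2, a split made after the values had been seen. The difference between the compartments was not tested.

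Of 43 translation factor genes 7 fell (16.3%, against 16.7% of expressed genes) and 2 rose (4.65%, against 23.5%) under 2-fold. The median was -0.059, and 4 of the falls were called under every scaling. There were 4 falls and 4 rises after quantile normalization, but 17 falls and 2 rises after exon control centring, with a median of -0.216. Without LPS replicate 2, Inulin replicate 2 or Inulin+TsSP replicate 3 the falls numbered 4. Eif2b3, a subunit gene of the exchange factor eIF2B, and Eef1e1, a gene of the multisynthetase complex, fell 1.64-fold and 1.48-fold. The rises were Eif4ebp2 and Eif4ebp1, which encode repressors of cap-dependent initiation, at 1.76-fold and 1.33-fold (adjusted p = 0.000879 and 0.00104), and both were called under every scaling. Eif4ebp1 read 13.04, 13.16 and 13.32 with TsSP, against 12.70, 12.74 and 12.87 without, with no overlap.

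Promoters of ribosome biogenesis genes are shown because members of this list fell together. The E-box CACGTG, the letters that MYC and related factors recognise, was searched in the same windows, and it reads the same on both strands. It was found in 10 of 48 members with a window (20.8%), 8 of them called lower and 0 higher in a list of which 39 of 55 members were called lower, against 747 of 6844 (10.9%) of genes expressed on all 12 arrays, 136 of 1116 (12.2%) of moderate falls and 180 of 1634 (11.0%) of moderate rises. Of the other lists searched, the share was close to this in deubiquitinases, with 9 of 45 (20%), 4 of them called lower. It was 4 of 25 (16%) in aminoacyl-tRNA synthetases, 3 of them called lower, 9 of 63 (14.3%) in the ER list, 5 of them called higher, 3 of 37 (8.11%) in cytosolic ribosomal proteins and 2 of 41 (4.88%) in cytokine receptors and JAK-STAT transducers. The 3 moderate falls of the list with the smallest p among those with the letters, all with no overlap between the groups, were as follows, with CACGTG in capitals.
Ltv1, chr10:13193088-13193387 (minus strand): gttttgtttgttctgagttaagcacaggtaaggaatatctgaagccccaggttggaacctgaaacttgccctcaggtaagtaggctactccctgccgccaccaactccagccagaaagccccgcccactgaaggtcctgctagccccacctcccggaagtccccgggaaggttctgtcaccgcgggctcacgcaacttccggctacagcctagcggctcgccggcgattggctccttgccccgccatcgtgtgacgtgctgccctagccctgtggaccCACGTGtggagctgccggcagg
Tsr1, chr11:74897830-74898129 (plus strand): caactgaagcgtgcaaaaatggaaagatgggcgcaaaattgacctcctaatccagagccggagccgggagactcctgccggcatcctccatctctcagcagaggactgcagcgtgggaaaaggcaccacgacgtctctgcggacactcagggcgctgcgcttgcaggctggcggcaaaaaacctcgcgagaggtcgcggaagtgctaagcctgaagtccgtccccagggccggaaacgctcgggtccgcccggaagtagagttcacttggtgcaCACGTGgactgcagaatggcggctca
Mybbp1a, chr11:72441077-72441376 (plus strand): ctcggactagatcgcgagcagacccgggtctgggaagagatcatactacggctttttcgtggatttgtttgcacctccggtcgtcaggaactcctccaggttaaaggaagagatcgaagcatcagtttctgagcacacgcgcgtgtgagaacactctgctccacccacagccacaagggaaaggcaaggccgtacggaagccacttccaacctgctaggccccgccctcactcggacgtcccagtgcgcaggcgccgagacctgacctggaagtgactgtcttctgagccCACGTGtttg
In all 3 windows the letters lie after the start, 24 to 40 bases downstream of it. The next gene by the same rule, Utp18, is not shown and holds them before the start, at -20. Tsr1, a small subunit maturation gene, and Mybbp1a, a nucleolar regulator gene, fell by 0.49 and 0.56 on the log2 scale (adjusted p = 0.000402 and 0.000416).

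**Figure D4:**
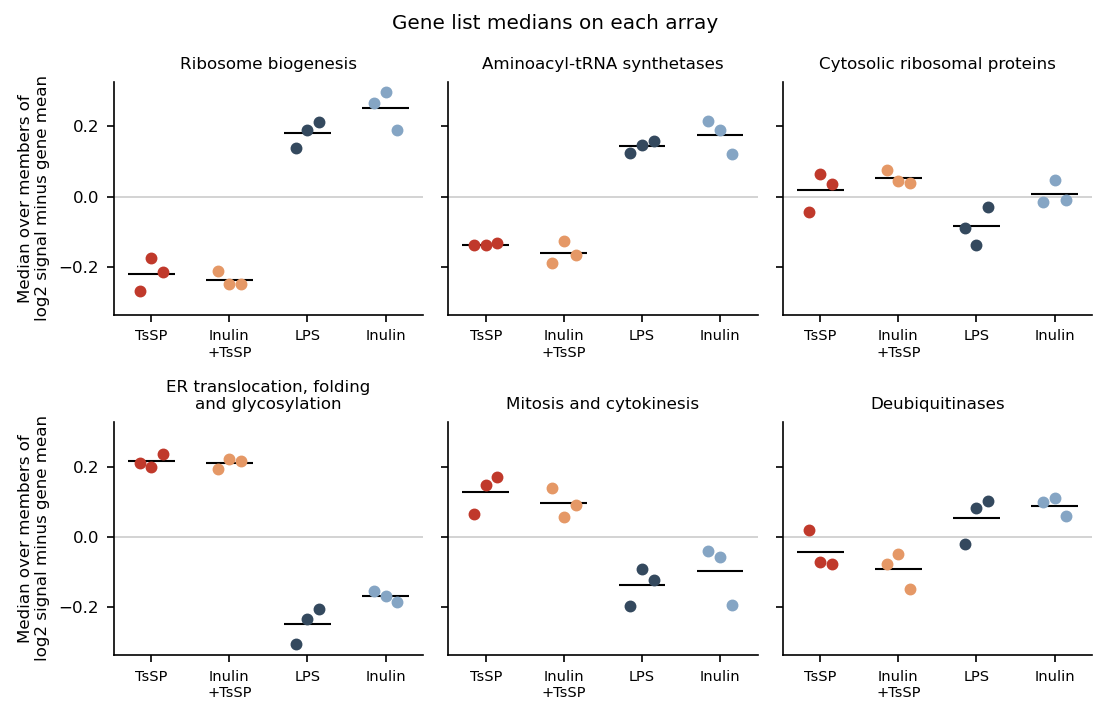
Medians of 6 gene lists on each array (y axis, median over members of the log2 signal minus the gene's mean over the 12 arrays) in the 4 groups (x axis). Points are arrays and lines are group means. Ribosome biogenesis and aminoacyl-tRNA synthetase genes lie below 0 on all 6 arrays with TsSP and above 0 on the 6 without, the ER list shows the opposite, and for cytosolic ribosomal proteins the groups overlap.

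Genes of the ER moved the other way. Of 77 measured genes of ER translocation, folding and glycosylation, 42 rose by less than 2-fold (54.5%, against 23.5% of expressed genes), 7 rose by more (Sdf2l1, Creld2, Eif2ak3, Dnajc3, Ero1b, P4hb and Ero1a) and 2 fell, Herpud1 and Alg8. The median difference was 0.406 as deposited and 0.249 after exon control centring, and 32 of the 42 moderate rises and both falls were called under every scaling. The median of the members was 0.194 to 0.234 on the arrays with TsSP and -0.305 to -0.152 on those without, with no overlap. With any 1 array left out, 40 to 45 were called higher under 2-fold.

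The chaperone gene Hyou1 read 15.86, 15.90 and 15.96 with TsSP, against 15.15, 15.22 and 15.30 without, and rose 1.61-fold (SE 0.07 on the log2 scale, adjusted p = 7.82e-06). Rpn1, a subunit gene of the oligosaccharyltransferase, which attaches sugar chains to nascent proteins, read 14.46, 14.50 and 14.69 with TsSP, against 13.65, 13.81 and 13.87 without, and rose 1.68-fold. In both genes every array with TsSP lay above every array without. Sec61g, a subunit gene of the translocon through which proteins enter the ER, rose 1.68-fold, and the co-chaperone genes Dnajb9 and Dnajb11 rose 1.85-fold and 1.73-fold.

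By function, again in sub-groups formed after the values had been seen, 16 of 19 genes of lumenal chaperones and disulphide isomerases rose (median 0.686), 15 of 23 of signal recognition, translocon and signal peptidase (median 0.400), 7 of 9 of the oligosaccharyltransferase (median 0.406) and 6 of 9 of ER-associated degradation (median 0.404). Of 13 genes for the synthesis of lipid-linked oligosaccharides 4 rose, Alg2, Alg12, Alg14 and Dpagt1, and 1, Alg8, fell. Of 4 stress sensor and factor genes 1 rose, Eif2ak3, while Xbp1, Atf6 and Ern1 did not pass, at 0.21, 0.06 and -0.20. Herpud1, whose product takes part in ER-associated degradation, fell by 0.34 (SE 0.08, adjusted p = 0.00926). Alg8 fell by 0.42 and was not called in 7 of 12 fits that each left out an array, at adjusted p = 0.0879 without Inulin+TsSP replicate 3. The abundant chaperone gene Hspa5 did not pass, at 0.19 (SE 0.07, adjusted p = 0.081), although its 6 arrays with TsSP lay just above the 6 without.

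The letters of the ER stress element, CCAAT followed after any 9 bases by CCACG, were searched on both strands in the same promoter windows. They were rare, in 27 of 15691 windows (0.172%), and 11 of the 27 belonged to members of the ER list, which made up 17.5% of its 63 members with a window. The list holds genes long known as targets of ER stress factors, so this share describes the list. Of these 11 genes, 9 were called higher (Alg12, Calr, Canx, Creld2, Dnajc3, Ero1b, Hsp90b1, Pdia6 and Derl3, the last above background on 7 arrays), 0 were called lower, and Hspa5 and Syvn1 were not called, at 0.19 and 0.08. The 4 moderate rises with the smallest p among those with no overlap between the groups are shown, with the fixed letters in capitals.
Hsp90b1, chr10:86705395-86705694 (minus strand): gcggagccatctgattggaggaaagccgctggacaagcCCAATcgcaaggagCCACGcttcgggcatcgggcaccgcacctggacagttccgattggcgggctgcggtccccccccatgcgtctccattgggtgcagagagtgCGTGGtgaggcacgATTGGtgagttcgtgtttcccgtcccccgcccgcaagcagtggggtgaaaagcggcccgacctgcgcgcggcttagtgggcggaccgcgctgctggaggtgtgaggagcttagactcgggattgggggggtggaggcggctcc
Calr, chr8:84846882-84847181 (minus strand): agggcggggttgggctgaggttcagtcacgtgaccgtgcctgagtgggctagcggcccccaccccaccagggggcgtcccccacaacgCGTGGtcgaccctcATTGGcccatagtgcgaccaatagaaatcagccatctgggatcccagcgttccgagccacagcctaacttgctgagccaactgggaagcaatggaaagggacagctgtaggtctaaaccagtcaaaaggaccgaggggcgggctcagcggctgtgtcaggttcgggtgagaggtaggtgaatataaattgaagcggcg
Alg12, chr15:88819269-88819568 (minus strand): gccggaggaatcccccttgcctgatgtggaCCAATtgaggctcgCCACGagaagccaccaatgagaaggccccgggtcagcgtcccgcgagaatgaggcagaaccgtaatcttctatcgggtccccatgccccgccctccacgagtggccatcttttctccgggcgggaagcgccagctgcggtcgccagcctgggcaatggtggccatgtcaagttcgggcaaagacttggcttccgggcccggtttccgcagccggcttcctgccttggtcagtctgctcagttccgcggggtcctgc
Pdia6, chr12:17266339-17266638 (plus strand): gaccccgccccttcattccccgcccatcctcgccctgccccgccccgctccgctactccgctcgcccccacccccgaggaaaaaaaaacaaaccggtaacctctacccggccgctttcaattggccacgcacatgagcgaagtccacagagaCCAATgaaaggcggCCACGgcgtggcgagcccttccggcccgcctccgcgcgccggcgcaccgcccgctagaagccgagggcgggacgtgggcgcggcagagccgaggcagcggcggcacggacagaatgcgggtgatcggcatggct
Hsp90b1 holds 2 matches, 1 on each strand, and Calr holds its match on the opposite strand. Hsp90b1, the gene of the ER form of HSP90, read 16.65, 16.79 and 16.87 with TsSP, against 16.11, 16.18 and 16.24 without, a rise of 0.59 on the log2 scale. Calr, the calreticulin gene, read 17.64, 17.70 and 17.73 with TsSP, against 17.15, 17.21 and 17.28 without, a rise of 1.40-fold. Alg12, a mannosyltransferase gene, and Pdia6, a disulphide isomerase gene, rose 1.59-fold and 1.37-fold, and in all 4 genes every array with TsSP lay above every array without.

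Of 69 genes of COPI and COPII coats and Golgi tethers, 25 rose under 2-fold (36.2%) and 4 fell (5.8%), with 12 rises and 4 falls called under every scaling and a median of 0.142 that was -0.016 after exon control centring. Preb, which encodes the exchange factor that starts COPII coat assembly, read 14.76, 14.84 and 14.92 with TsSP, against 13.90, 14.14 and 14.23 without, and rose 1.68-fold. Uso1, a Golgi tether gene, Arfgap3 and Kdelr1, the gene of a receptor that returns escaped ER proteins, rose 1.64-fold, 1.53-fold and 1.53-fold. Of 13 genes for cargo receptors and p24 proteins, 11 rose, 6 of them under every scaling, and of 9 for the COPI coat 3 rose, 1 of them under every scaling. These sub-groups too were formed after the values had been seen, and the difference between them was not tested. The moderate falls were Sec24b at 1.62-fold, Arf4 at 1.39-fold, Cog2 and Golga5, of which Cog2 and Golga5 lost their calls in 4 and 9 of these 12 fits (highest adjusted p 0.0565 without Inulin replicate 1 and 0.081 without Inulin+TsSP replicate 2), so that 2 falls were left without TsSP replicate 3 or Inulin+TsSP replicate 2. Of 73 genes of SNAREs and endosomal sorting 19 rose (26%, against 23.5% of expressed genes) and 6 fell (8.22%, against 16.7%) under 2-fold, 11 and 5 under every scaling. Nsf, the gene of the ATPase that recycles SNAREs, was 1.52-fold higher.

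**Figure D5:**
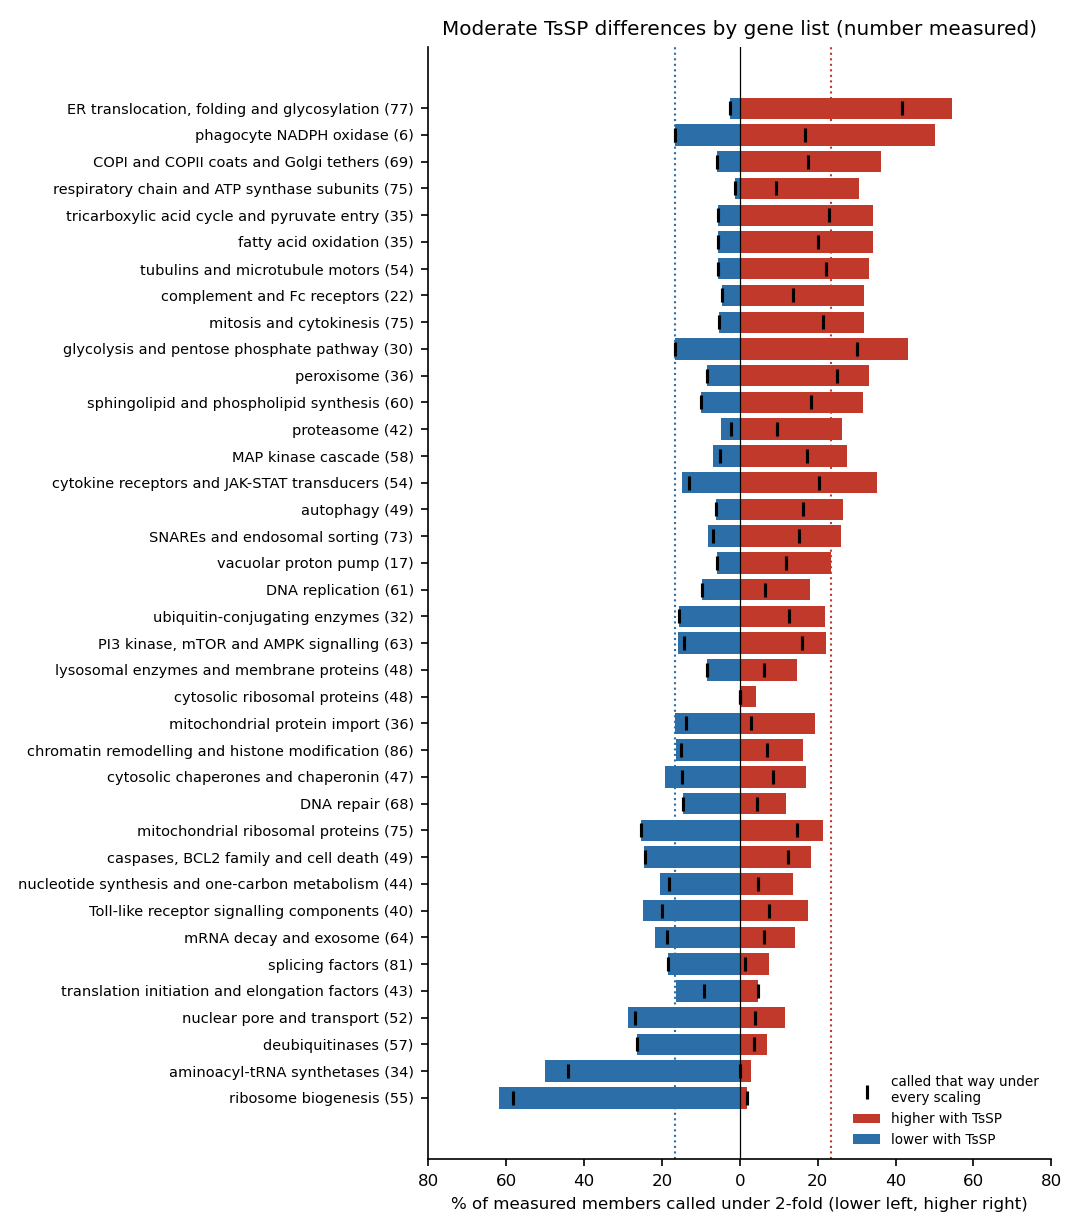
Share of the measured members of 38 gene lists (number measured in brackets) called under 2-fold with TsSP (x axis, percent), higher to the right in red and lower to the left in blue, with lists ordered by the difference of the 2 shares. Black ticks mark the share called that way under every scaling, and dotted lines mark 23.5% higher and 16.7% lower among all expressed genes. Members not above background on all 12 arrays count in the lists but not in the dotted lines. The ER list stands at the top with 54.5% higher and ribosome biogenesis at the bottom with 61.8% lower.

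Mitochondrial genes gave mostly small differences, mainly rises among respiratory chain genes and mixed ones among mitochondrial ribosomal protein and import genes. Of 75 genes of respiratory chain and ATP synthase subunits, 23 rose under 2-fold (30.7%), 1 rose by more and 1 fell (1.33%). Only 7 of the moderate rises were called under every scaling, and the median of 0.195 was 0.037 after exon control centring. Among the clearest rises were Ndufa4, Cox7a2, Cox7b and Cox6b1, at 1.46-fold, 1.42-fold, 1.42-fold and 1.39-fold. These are subunit genes of complex IV or associated with it. Ndufa13, a complex I gene, also rose, reading 12.712 to 13.051 with TsSP and 12.256 to 12.569 without. By complex, in sub-groups formed after the values had been seen, 11 of 35 complex I genes rose, 1 under every scaling. Of 11 complex IV genes 4 rose, all 4 under every scaling. Ndufa4 read 14.41, 14.54 and 14.60 with TsSP, against 13.83, 13.96 and 14.10 without, with no overlap. The member that fell, Uqcrc2 of complex III, at 1.19-fold and under every scaling, was not called in 11 of these 12 fits (highest adjusted p 0.103 without Inulin replicate 3).

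The 75 mitochondrial ribosomal protein genes split, with 16 higher (21.3%, against 23.5% of expressed genes) and 19 lower (25.3%, against 16.7%) under 2-fold. The median was -0.017, and 11 of the rises and the 19 falls were called under every scaling. Mrpl51 read 12.63, 12.68 and 12.79 with TsSP, against 11.74, 11.81 and 12.00 without, and rose 1.83-fold, while Mrpl16 read 10.37, 10.50 and 10.68 with TsSP, against 11.01, 11.15 and 11.35 without, and fell 1.58-fold. Members of the same particle thus differed in opposite directions, each with no overlap between groups. Mrps21 rose 1.61-fold and Mrpl3 fell 1.54-fold. Of 36 genes of mitochondrial protein import, 7 rose (19.4%, against 23.5% of expressed genes) and 6 fell (16.7%, the same share as in expressed genes) under 2-fold. Of these, 1 rise and 5 falls were called under every scaling. Hspd1, which encodes the mitochondrial chaperonin, and Timm44, a gene of the import motor, fell 1.24-fold and 1.34-fold.

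Among the genes of carbon metabolism, 13 of 30 of glycolysis and the pentose phosphate pathway rose under 2-fold (43.3%, against 23.5% of expressed genes) and 6 by more. The 5 that fell made up 16.7%, the same share as in expressed genes. In this list 9 of the moderate rises and the 5 falls were called under every scaling. Ldha, the lactate dehydrogenase A gene, read 16.19, 16.36 and 16.42 with TsSP, against 15.16, 15.47 and 15.52 without, and rose 1.88-fold. Pfkfb3, which encodes the enzyme that makes the activator of phosphofructokinase, rose 2.00-fold (0.997 on the log2 scale), Aldoa 1.49-fold and Taldo1, of the pentose phosphate pathway, 1.74-fold. The falls were the hexokinase gene Hk3 at 1.70-fold, Pfkm and Pfkp at 1.65-fold and 1.31-fold, the transporter gene Slc2a6 at 1.31-fold and Rpe at 1.27-fold, while Pfkfb3 and Ldha were higher. In the list of the tricarboxylic acid cycle and pyruvate entry 12 of 35 rose (34.3%) and 2 fell (5.71%) under 2-fold, 8 and 2 under every scaling. Acly, the ATP citrate lyase gene, and Slc25a1, which encodes the mitochondrial citrate carrier that feeds it, rose 1.56-fold and 1.62-fold, and Pcx, the pyruvate carboxylase gene, 1.84-fold.

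Pdhb, a pyruvate dehydrogenase subunit gene, fell 1.27-fold, as did Dlst at 1.31-fold, which was not called in 6 of these 12 fits (highest adjusted p 0.0723 without Inulin+TsSP replicate 3). Of 35 fatty acid oxidation genes 12 rose (34.3%) and 2 fell (5.71%) under 2-fold, 7 and 2 under every scaling. The moderate falls were Acad9 at 1.79-fold and Acadl at 1.36-fold, and 1 fell by more, Cpt1a, the gene of the enzyme that admits fatty acids to mitochondria, at 2.41-fold. Of 60 genes of sphingolipid and phospholipid synthesis 19 rose (31.7%) and 6 fell (10%) under 2-fold (11 and 6 under every scaling, with 3 falls without Inulin+TsSP replicate 3). Pcyt2 and Cds2, genes of phospholipid head group and precursor synthesis, were 1.74-fold and 1.71-fold higher. Of 36 peroxisome genes 12 rose (33.3%) and 3 fell (8.33%) under 2-fold, the falls being Slc25a17, Pex16 and Pex7, with 9 and 3 called under every scaling. Cat, the catalase gene, read 17.24, 17.45 and 17.50 with TsSP, against 16.75, 16.97 and 17.07 without, and rose 1.39-fold.

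Protein breakdown genes changed in both directions. Of 42 proteasome genes 11 rose (26.2%, against 23.5% of expressed genes), with Psmc1 and Psmd5 at 1.51-fold and 1.61-fold. Falls numbered 2 (4.76%, against 16.7%), Psmd10 and Psmd8, and only 4 rises and 1 fall were called under every scaling. Psmd8 was not called in 3 of these 12 fits (highest adjusted p 0.0566 without TsSP replicate 1) and after quantile normalization (adjusted p = 0.0644). Of 57 deubiquitinase genes 15 fell under 2-fold (26.3%, against 16.7% of expressed genes), all 15 under every scaling, and 5 fell by more. Rises numbered 4 (7.02%, against 23.5%), 2 of them under every scaling. Besides Usp18, Usp15, Usp25, Usp45 and Usp16 fell 1.42-fold, 1.46-fold, 1.45-fold and 1.38-fold. Usp15 read 11.80, 11.85 and 11.99 with TsSP, against 12.28, 12.37 and 12.53 without, with no overlap. The rises were Usp20, Usp46, Usp5 and Usp28, of which Usp28, above background on 10 arrays, was not called in 5 of these 12 fits (highest adjusted p 0.0609 without TsSP replicate 1) and after exon control centring (adjusted p = 0.0554). Without LPS replicate 3 the rises numbered 7.

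Of 32 ubiquitin-conjugating genes 7 rose (21.9%) and 5 fell (15.6%) under 2-fold, shares near the 23.5% and 16.7% of expressed genes. Of these, 4 rises and 5 falls were called under every scaling. Ube2l6 and Uba7, which encode the conjugating and activating enzymes of ISG15, fell 1.46-fold and 1.75-fold, beside the fall of the deconjugating Usp18. Ube2e1 and Ube2e3 fell 1.67-fold and 1.58-fold, and Ube2o rose 1.90-fold.

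Of 49 autophagy genes 13 rose under 2-fold (26.5%, against 23.5% of expressed genes), 8 of them under every scaling. Another 3 fell (6.12%, against 16.7%), all 3 under every scaling, Sqstm1, Atg4a and Ambra1. Map1lc3b, which encodes the autophagosome marker LC3B, read 12.24, 12.57 and 12.76 with TsSP, against 11.44, 11.68 and 11.80 without, and rose 1.85-fold (SE 0.11 on the log2 scale, adjusted p = 3.17e-05). Atg9a, the gene of the membrane protein of early autophagosomes, rose 1.94-fold, Gabarapl1 1.53-fold, the receptor gene Tax1bp1 1.47-fold and the transcription factor gene Tfe3 1.40-fold. Of 48 lysosomal genes 7 rose under 2-fold (14.6%, against 23.5% of expressed genes), 3 of them under every scaling. Another 4 fell (8.33%, against 16.7%), all 4 under every scaling. The falls were Nagpa, Ctse, Galns and Ids (2 without LPS replicate 3, Inulin replicate 2 or 3, or Inulin+TsSP replicate 2). Ctsl, the cathepsin L gene, was 1.52-fold higher and Nagpa 1.43-fold lower. Of 17 genes of the vacuolar proton pump 4 rose, a share of 23.5% that equalled the 23.5% of expressed genes. They were Atp6v0e2 at 1.83-fold, Atp6v0d1, Atp6v1a and Atp6v0e, the last not called in 6 of these 12 fits. The 1 that fell (5.88%, against 16.7% of expressed genes) was Atp6v1b2, by 0.58 on the log2 scale. In this list 2 of the rises and the fall were called under every scaling. Of 47 cytosolic chaperone genes 8 rose (17%, against 23.5% of expressed genes) and 9 fell (19.1%, against 16.7%) under 2-fold. Of these, 4 rises and 7 falls were called under every scaling, with 4 falls without Inulin replicate 1. Among them were Dnajb1 at 1.57-fold higher and Dnaja2 at 2.00-fold lower (-0.999 on the log2 scale).

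Among nuclear transport and splicing genes more members fell than rose. Of 52 genes of nuclear pore and transport 15 fell under 2-fold (28.8%), 14 under every scaling, and 6 rose (11.5%), 2 of them under every scaling. Ranbp2, the gene of the large nucleoporin on the cytosolic face of the pore, read 13.55, 13.67 and 13.85 with TsSP, against 14.19, 14.34 and 14.66 without, and fell 1.60-fold. Nup54, a gene of the central channel, and Ranbp1, of the Ran cycle, fell 1.60-fold and 1.43-fold, while Kpnb1, the importin beta 1 gene, rose 1.35-fold. Of 81 splicing factor genes 15 fell under 2-fold, all 15 under every scaling, a share of 18.5% near the 16.7% of expressed genes, and 6 rose (7.41%), 1 of them under every scaling. After exon control centring 35 were lower and 1 higher. Tra2a and Tra2b, which encode related splicing regulators, fell 1.44-fold and 1.27-fold, Sf3a2 1.44-fold and Dhx15 1.28-fold, against a rise of 1.42-fold for Srsf9.

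Of 64 genes of mRNA decay and the exosome 14 fell (21.9%, against 16.7% of expressed genes) and 9 rose (14.1%, against 23.5%) under 2-fold, 12 and 4 under every scaling. Zfp36, which encodes tristetraprolin, the factor that destabilises cytokine mRNAs, read 14.66, 14.88 and 15.05 with TsSP, against 15.54, 15.64 and 15.74 without, and fell 1.69-fold (adjusted p = 2.06e-05). Zfp36l1, its relative, read 12.87, 12.97 and 13.06 with TsSP, against 11.80, 12.03 and 12.17 without, and rose 1.96-fold. The 2 family members moved apart, each with a wide gap between the groups and under every scaling. Zc3h12c, a relative of regnase-1, fell 1.94-fold, and Ago1 and Tnrc6c, of microRNA silencing, rose 1.88-fold and 1.91-fold. Of 86 chromatin genes 14 rose (16.3%, against 23.5% of expressed genes) and 14 fell (16.3%, against 16.7%) under 2-fold. Of these, 6 and 13 were called under every scaling, and a further 3 rose and 2 fell by more. The histone demethylase genes Kdm4b and Kdm4c were 1.85-fold higher and 1.70-fold lower.

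Of 75 genes of mitosis and cytokinesis 24 rose under 2-fold (32.0%), 16 under every scaling, and 4 fell, all 4 under every scaling, Cenpe, Smc2, Plk4 and Pttg1. Nek2, a centrosomal kinase gene, read 11.25, 11.45 and 11.67 with TsSP, against 10.61, 10.69 and 10.91 without, and rose 1.66-fold. Incenp, of the chromosomal passenger complex, and Kif23, a kinesin gene of cytokinesis, rose 1.57-fold and 1.48-fold. Of 61 DNA replication genes 11 rose (18%, against 23.5% of expressed genes) and 6 fell (9.84%, against 16.7%) under 2-fold, 4 and 6 under every scaling. Cdt1, the licensing factor gene, Pola1, of the primase complex, and Mcm6, of the helicase, fell 1.73-fold, 1.97-fold and 1.55-fold, and the histone chaperone gene Asf1b rose 1.42-fold. Of 44 genes of nucleotide synthesis and one-carbon metabolism 9 fell (20.5%, against 16.7% of expressed genes) and 6 rose (13.6%, against 23.5%) under 2-fold. Of these, 8 falls and 2 rises were called under every scaling, and a further 2 rose and 1 fell by more. Pnp, the purine nucleoside phosphorylase gene, fell 1.62-fold, and Mthfd2, of the mitochondrial folate pathway, fell 1.37-fold. Ak3, an adenylate kinase gene, rose, reading 12.578 to 13.067 with TsSP and 11.986 to 12.335 without.

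Signalling genes changed in both directions. Of 40 genes of Toll-like receptor signalling components 10 fell (25%, against 16.7% of expressed genes) and 7 rose (17.5%, against 23.5%) under 2-fold, 8 and 3 under every scaling. A further 4 fell and 0 rose by 2-fold or more. Tlr7 read 15.20, 15.26 and 15.56 with TsSP, against 16.11, 16.14 and 16.29 without, and fell 1.81-fold, whereas Tlr13, also an endosomal receptor of RNA, read 11.81, 11.90 and 12.09 with TsSP, against 10.94, 11.03 and 11.23 without, and rose 1.85-fold. Irak2, an adaptor kinase gene, Ly86, the MD-1 gene, and Tank fell 1.83-fold, 1.70-fold and 1.60-fold. These 3 genes were called lower under every scaling, and the 2 receptor genes kept their opposite directions.

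Of 54 genes of cytokine receptors and JAK-STAT transducers 19 rose (35.2%, against 23.5% of expressed genes) and 8 fell (14.8%, against 16.7%) under 2-fold. Of these, 11 rises and 7 falls were called under every scaling. A further 5 rose and 5 fell by 2-fold or more. Stat2 and Tyk2, transducers of type I interferon, fell 1.71-fold and 1.73-fold, while Stat6, the transducer of interleukin-4, rose 1.76-fold, with Ptpn1 and Il6st at 1.56-fold and 1.52-fold higher. Stat2 read 14.29, 14.31 and 14.51 with TsSP, against 15.06, 15.12 and 15.19 without. Of 58 MAP kinase genes 16 rose (27.6%, against 23.5% of expressed genes) and 4 fell (6.9%, against 16.7%) under 2-fold. Of these, 10 rises and 3 falls were called under every scaling, and a further 8 rose and 3 fell by more. The moderate falls were Spred1, Spry1, Rps6ka3 and Dusp16 (2 without Inulin replicate 3 or Inulin+TsSP replicate 1). Rras, Shc1 and Mapk7 were 1.75-fold, 1.70-fold and 1.46-fold higher. Dusp1, which encodes a phosphatase of p38 and JNK, was 1.42-fold higher, against Spred1, a Ras inhibitor gene, at 1.62-fold lower. Of 63 genes of PI3 kinase, mTOR and AMPK signalling 14 rose and 10 fell under 2-fold (10 and 9 under every scaling), shares of 22.2% and 15.9% near the 23.5% and 16.7% of expressed genes, and 6 rose and 4 fell by more. The list shares include dim members, as 51 of the 63 lay above background on all 12 arrays. Akt1, Pik3cg, Stk11 and the AMPK subunit gene Prkag1 rose 1.59-fold, 1.86-fold, 1.49-fold and 1.73-fold, and Inppl1, which encodes the lipid phosphatase SHIP2, fell 1.79-fold.

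Of 49 genes of caspases, the BCL2 family and cell death 12 fell under 2-fold (24.5%, against 16.7% of expressed genes), all 12 under every scaling. Rises under 2-fold numbered 9 (18.4%, against 23.5%), 6 of them under every scaling. Bcl2l11 and Bid, both genes of pro-apoptotic BH3 proteins, fell 1.77-fold and 1.56-fold, as did the inhibitor of apoptosis gene Birc3 at 1.45-fold and the necroptosis effector gene Mlkl at 1.44-fold. Pycard, which encodes the inflammasome adaptor ASC, read 9.66, 9.97 and 10.08 with TsSP, against 8.95, 9.13 and 9.17 without, and rose 1.77-fold. Of 68 DNA repair genes 10 fell (14.7%, against 16.7% of expressed genes) and 8 rose (11.8%, against 23.5%) under 2-fold, 10 and 3 under every scaling. The rises numbered 5 without LPS replicate 1 or 2, Inulin replicate 2 or Inulin+TsSP replicate 2. The checkpoint kinase gene Atm was 1.84-fold lower and the glycosylase gene Ogg1 1.74-fold higher.

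Of 54 genes of tubulins and microtubule motors, 18 rose (33.3%) and 3 fell (5.56%) by less than 2-fold, 12 and 3 under every scaling. Tubb5, a tubulin gene, read 16.65, 16.73 and 16.74 with TsSP, against 15.95, 16.00 and 16.10 without, and rose 1.63-fold. In dynein, the light chain genes Dynlt1b and Dynll1 rose 1.75-fold and 1.47-fold, while the genes of the heavy, intermediate and light intermediate chains, Dync1h1, Dync1i2 and Dync1li1, fell 1.51-fold, 1.21-fold and 1.29-fold, so that subunits of 1 motor differed in opposite directions. For Dync1h1 the groups overlapped, with 13.742 on TsSP replicate 2 and 13.708 on LPS replicate 1. Its fold leans on LPS replicate 3 at 14.868, as the other arrays without TsSP read at most 14.125. After exon control centring the median of the list was 0.000, against 0.158 as deposited.

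Among effectors of phagocytes, 4 of 6 NADPH oxidase genes passed (66.7%), where 49.1% of expressed genes did. With only 6 members these shares cannot be told apart. Ncf4, for the subunit p40phox, rose 1.43-fold and Ncf1, for p47phox, fell 1.39-fold, with Ncf1 at 15.37, 15.50 and 15.58 with TsSP, against 15.89, 15.95 and 16.05 without. Rac2 and Rap1a rose 1.20-fold and 1.29-fold and were not called after exon control centring (adjusted p = 0.344 and 0.11), so that 1 rise and 1 fall of the list were called under every scaling. Of 22 complement and Fc receptor genes 7 rose under 2-fold (31.8%), 3 of them under every scaling, with Itgam and Itgb2, which encode the chains of complement receptor 3, at 0.71 and 0.59 higher on the log2 scale. The 1 moderate fall (4.55%), C3ar1 at 1.16-fold, was a call made under every scaling but lost in 11 of these 12 fits (highest adjusted p 0.0966 without Inulin replicate 1). Cfb, the complement factor B gene, fell 3.42-fold and lies outside the moderate range.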

How the data were processed

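Total RNA was extracted with the RNeasy mini kit and biotin-labelled by Affymetrix's protocol, per the labels' protocols. The deposited table gives log2 signals, 1 per probe set and array. Base 2 was inferred from their range. How the authors corrected background and normalized, and with which software, is not given in the sources used here. Any flattening of dim or saturated signals in those steps carries into the folds. Of 28846 probe sets, 19572 carry 1 gene symbol, all matched by gene number to RefSeq (GRCm38.p6). For 55 genes with several probe sets the brightest stood for the gene. A gene counted as above background where it exceeded the brightest of 23 background probe sets.

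The values were fitted as deposited with limma 3.58.1 in R 4.3.3 (lmFit and eBayes, TsSP and inulin as additive terms, 9 residual and 3.33 prior degrees of freedom). Two-sided p-values were adjusted (Benjamini-Hochberg) across the 19505 genes, with a threshold of 0.05. A moderate difference passed it and was under 2-fold. Comparisons of 3 with 3 arrays and the interaction came from a model of 4 group means. The fits were tested on simulated data. Alternatives were 3 other scalings, array weights, a mean-variance trend, a filter on dim genes, a replicate block, and each array left out. No 2 arrays were identical. The number of arrays limits the precision.

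The 39 gene lists and 2 marker lists name 2293 members, of which 2100 were measured. The result of 1 of the 39 lists is not reported here, which leaves 38. Named genes lay above background on all 12 arrays with no overlap between the 6 and 6 arrays, other than predicted, small RNA and chemosensory receptor genes, except members named because a count is 5 or fewer. They were the 12 rises and 12 falls under 2-fold with the smallest p, 8 and 8 called in neither comparison of 3 with 3, up to 5 members of each list, 2 genes on each side of the 2-fold limit in each direction, and, of the 6 genes measured most tightly near 0, Rpl15. No gene qualified by an interaction call. ER and ribosome biogenesis members that did not pass or passed 2-fold, and promoter genes, were named after their values were seen. The genes, lists and sub-groups were chosen with earlier results of these data known. Plots used matplotlib 3.10.9 in Python 3.11.15.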

Additional observations from a re-analysis of the deposited data

Results flagged for a closer look

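Transcript clusters with no gene name entered no comparison above, and they also differed with TsSP. Of 2634 such clusters 810 lay above background on all 12 arrays, and 351 of these passed the threshold in limma (adjusted p under 0.05). Of the 351, 280 differed by less than 2-fold (34.6% of the 810, against 40.1% of expressed named genes), 169 higher and 111 lower with TsSP. What they encode is not analysed here.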

How the results depend on the processing

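Over the genes named by rule, alternatives kept direction and side of the threshold 6022 times, lost the call 115 times and reversed it 0 times. Counts of list members stayed within 1.5 times 1634 times and moved further 170 times. Centring on the exon control median gave 1455 moderate rises and 3273 falls. The genes that only the 6 with 6 comparison called numbered 648 when only genes above background in at least 1 group were fitted and 1910 when each contrast was fitted on its own 6 arrays, which by construction tests fewer genes or uses fewer arrays. The share of moderate genes carried from arrays without inulin to arrays with it was 51.6% after exon control centring, 69.1% among genes above background in at least 1 group (71.3% the other way round) and 70.9% with a mean-variance trend (71.4% the other way round). The cause of these moves was not tested. With any 1 array left out, 4687 to 4958 genes were called, 3636 to 3924 under 2-fold (2092 to 2211 higher, 1526 to 1789 lower), 1174 to 1320 by the 6 with 6 comparison alone, and the interaction called 0. With the number as a replicate block, 4882 genes were called, 3835 under 2-fold (2209 higher, 1626 lower), 1340 by the 6 with 6 comparison alone, and the interaction called 0. No pairing by number was seen in the data. Deviations of same-numbered arrays correlated at -0.0976 to 0.119 over 18 pairs, with a median of -0.0161, against 0.00748 for different-numbered pairs. Of the 12 arrays 4 correlated best with their own number. Low correlations do not exclude that same-numbered arrays shared a step of preparation. Signal over background limits what can be said of dim genes, with 475 moderate calls above background on no array.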

Other observations

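Absence of change was bounded for part of the expressed genes. Of 8289 genes above background on all 12 arrays, 586 (7.07%) had a 95% interval wholly within 0.25 of 0 on the log2 scale, or 1.19-fold, and 6978 (84.2%) had one wholly inside 2-fold. For the remaining genes the arrays leave room for a difference of 2-fold or more in at least 1 direction.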
